A study of Zea mays with 2 samples.

Results

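The 9 genes described here encode transcription factors that act in maize endosperm, the kernel tissue that fills with starch and storage protein. They are opaque-2 (O2), prolamin-box binding factor (PBF1), opaque 11 (O11), NAC128, NAC130, naked endosperm 1 and 2 (NKD1, NKD2), viviparous-1 (VP1) and floury 3 (FL3). They were chosen by gene ID for their known roles, with earlier results of these data known. All 9 IDs were found among the 33283 genes of the data. The data are RNA-sequencing values from endosperm at 15 days after pollination (DAP) of 2 genotypes: dek33, a defective kernel mutant, and wild type. The labels give no allele, inbred background or number of kernels for either genotype. The labels speak of triplicates, but there is 1 value per gene and genotype, and the sources used here do not give how replicates were combined. No difference below therefore has a replicate check, and each compares these 2 libraries rather than the genotypes.

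O2 is a bZIP protein that activates the 22 kD alpha zein genes, which encode storage proteins of the kernel. It acts together with PBF1, a Dof zinc-finger protein that binds the prolamin box of zein promoters. O11, a basic helix-loop-helix protein, is known to act upstream of O2, PBF1 and NKD2. NAC128 and NAC130 are close relatives that activate starch and zein genes. NKD1 and NKD2 are duplicate zinc-finger proteins of the indeterminate domain class that set aleurone cell fate. VP1, a B3-domain protein, conveys abscisic acid signals during seed maturation in embryo and aleurone. FL3, a PLATZ protein, is known to bind subunits of RNA polymerase III, which transcribes transfer RNA and 5S ribosomal RNA genes.

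Levels are given in FPKM, fragments scaled by transcript length and by the number mapped in the library, so that genes of different length can be set side by side within a library. FPKM of all genes summed to 761571 in dek33 and 672660 in wild type, and the number of reads is unknown. The dek33 gene is known to encode a pyrimidine reductase of riboflavin synthesis. That gene (GRMZM2G090068) had 6.44 FPKM in dek33 and 4.55 in wild type, so its transcript level does not tell the libraries apart. Ratios are log2((dek33 + 1)/(wild type + 1)). The added 1 pulls the ratios of low genes towards 0. The median ratio of 21688 genes with at least 1 FPKM in 1 or both libraries was 0.44, a 1.36-fold shift towards dek33. Ratios with this median subtracted are called centred. A gene counted as higher or lower when it differed by at least 2-fold on this scale and had at least 5 FPKM in 1 or both libraries. Tissue markers were also read. All 7 starchy endosperm markers were abundant, with a summed FPKM of 15878 in dek33 and 11617 in wild type. These markers cannot show whether other tissue was present. The 5 embryo markers, described below, summed to 369 FPKM in dek33 and 6908 in wild type.

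All 9 regulators were expressed above the limit of 5 FPKM in both libraries, over a range of 5.86 to 775 FPKM in dek33 and 12.7 to 966 in wild type. NAC128 and FL3 were higher in dek33, VP1 was lower, and the other 6 differed by less than 2-fold. The VP1 call was lost with a pseudocount of 5 or an FPKM minimum of 20. Among the 14348 genes with at least 5 FPKM, 14.8% were higher and 4.02% lower in dek33 by the same rule. The counts of 2 and 1 among 9 therefore lie near the background of these libraries. After centring, 0 of the 9 were higher and VP1 was still lower, against background shares of 4.4% higher and 6.79% lower. The median ratio of the 9 genes was 0.26 (-0.18 centred), below the median of 0.44 for expressed genes. Of these regulators, 5 had a ratio above 0 and 4 below it, whereas 83.9% of the 14348 genes lay above 0. As bulk tissue was sequenced, fewer cells of a type and less RNA per cell cannot be told apart in any of these values.

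**Figure D1:**
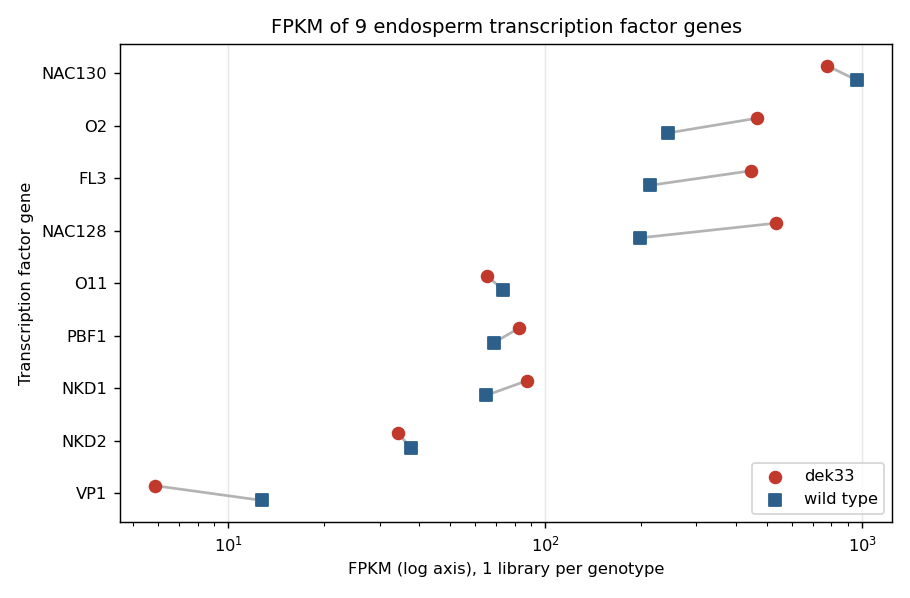
FPKM of each of the 9 transcription factor genes in the dek33 library (red circles) and the wild type library (blue squares), on a log axis, ordered by wild type level. NAC130 was the most abundant in both libraries (775 FPKM in dek33, 966 in wild type) and VP1 the least (5.86 in dek33, 12.7 in wild type), and NAC128, FL3 and O2 show the widest gaps towards dek33.

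**Figure D2:**
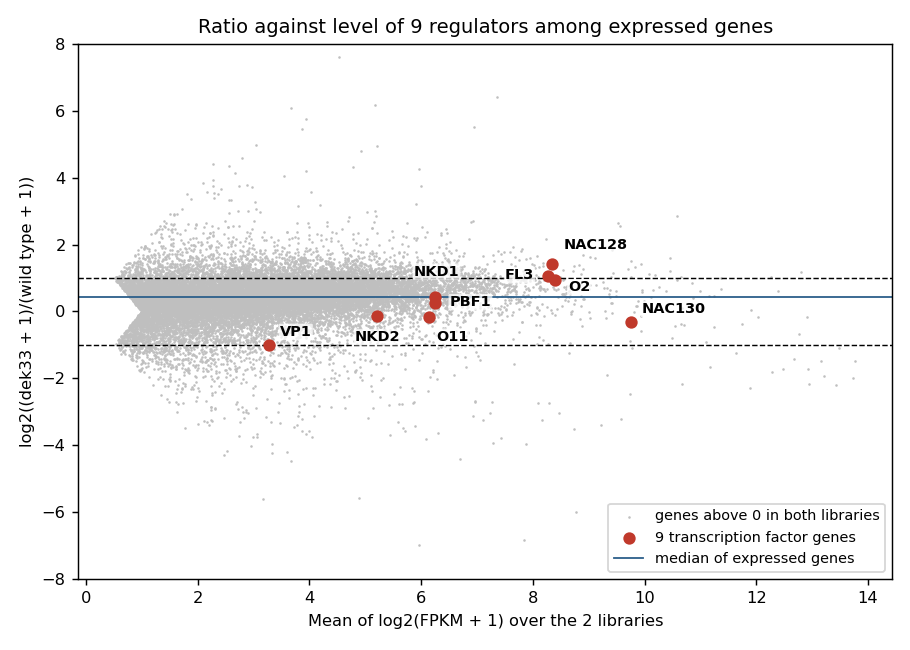
The log2 ratio of dek33 over wild type against the mean log2(FPKM + 1) of the 2 libraries, for genes with at least 1 FPKM in 1 or both libraries and above 0 in both (grey) and the 9 regulators (red). Dashed lines mark 2-fold and the blue line the median of expressed genes at 0.44; of the 9, NAC128 at 1.42 lies farthest above the median and VP1 at -1.002 farthest below it.

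O2, the activator of 22 kD zeins (GRMZM2G015534, chromosome 7, 10798507 to 10801399, B73 RefGen_v3), had 466 FPKM in dek33 and 245 in wild type. The ratio of 0.93, or 1.90-fold on the log2(FPKM + 1) scale, fell just short of the 2-fold limit, and 18.4% of the 14348 genes had a larger one. Centred, the ratio was 0.49. O2 ranked 139th of all genes by FPKM in dek33 and 197th in wild type. Among 86 genes described as bZIP proteins it was the most abundant in dek33, with 29.9% of the FPKM of that family, and the second in wild type, with 20.4%. The gene next to it in that order was lip15 (GRMZM2G448607), a low-temperature-induced bZIP gene, at 262 FPKM in dek33 and 269 in wild type.

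PBF1, the prolamin-box binding partner of O2 (GRMZM2G146283, chromosome 2, 154144472 to 154148029), had 82.5 FPKM in dek33 and 68.7 in wild type. Its ratio of 0.26 lay above 0 as deposited and below 0 after centring (-0.18), so its direction depends on how the libraries are scaled. An adjacent gene ID, GRMZM2G146267 (154150352 to 154158967), carries the same PBF name in the gene table. It had 17.5 FPKM in dek33 and 14.6 in wild type, with a plain ratio of 1.19 beside 1.20 for PBF1. Of 9 genes found as Dof genes by description or name, PBF1 ranked first in both libraries. It held 48.1% of their FPKM in dek33 and 57.7% in wild type. DOF36 (GRMZM2G137502), the second, had 73.7 FPKM in dek33 against 36.1 in wild type and was counted as higher as deposited, but not when centred.

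O11 (GRMZM2G147685, chromosome 2, 52437508 to 52442955) had 65.4 FPKM in dek33 and 73.8 in wild type, a ratio of -0.17 (-0.61 centred). It stayed the most abundant of 108 genes found as basic helix-loop-helix genes by description or name. It held 9.86% of their FPKM in dek33 and 13.7% in wild type. The runner-up in dek33 (GRMZM2G061906) was close behind with 64.2 FPKM, against 44.8 in wild type. The runner-up in wild type was another gene (GRMZM2G005939), with 52.9 FPKM in dek33 and 55.3 in wild type.

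NAC128 (GRMZM2G062650, chromosome 3, 31805298 to 31807331), described in the data as NAM-related protein 1, had 533 FPKM in dek33 and 198 in wild type. At 2.69-fold, with a ratio of 1.42, it differed more than any other of the 9 regulators as deposited, whereas VP1 differed more after centring. Of the 14348 genes 4.69% had a larger ratio. Centred, the ratio was 0.98, or 1.97-fold, just under the limit. NAC130 (GRMZM2G154182, chromosome 8, 7300179 to 7302179), its relative, had 775 FPKM in dek33 and 966 in wild type, a ratio of -0.32 (-0.76 centred). NAC130 was the most abundant regulator of both libraries, at rank 87 of all genes in dek33 and rank 55 in wild type. This pair of starch and zein gene activators thus stood on opposite sides of 0 and of the median of expressed genes.

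NAC130 and NAC128 ranked first and second of 84 genes found as NAC genes by description or name in both libraries. NAC130 held 35.9% of NAC family FPKM in dek33 and 56.0% in wild type, and NAC128 held 24.7% in dek33 and 11.5% in wild type. Within a library, NAC128 stood at 0.687 times NAC130 in dek33 and at 0.205 times in wild type, a 3.35-fold difference that does not depend on how the libraries are scaled. Their summed FPKM was 1308 in dek33 and 1164 in wild type, a 1.12-fold difference.

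NKD1 (GRMZM2G129261, chromosome 2, 17718739 to 17726319) had 87.6 FPKM in dek33 and 65.1 in wild type, a ratio of 0.42. Centred, its ratio was -0.018, so it lay almost at the median of expressed genes. NKD2 (GRMZM5G884137, chromosome 10, 137525111 to 137530608), its duplicate, had 34.2 FPKM in dek33 and 37.7 in wild type, a ratio of -0.14 (-0.58 centred). NKD1 was more abundant than NKD2 in both libraries, by 2.56 times in dek33 and 1.72 times in wild type. NKD1 and NKD2 were the most abundant in both of 4 genes found as indeterminate domain genes by description or name. The aleurone marker AL-9, expressed in the layer whose fate this pair sets, had 739 FPKM in dek33 and 627 in wild type. The other 5 aleurone markers, all genes of anthocyanin synthesis, were below 5 FPKM in both libraries.

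VP1 (GRMZM2G133398, chromosome 3, 162842569 to 162847653), the regulator of seed maturation, had 5.86 FPKM in dek33 and 12.7 in wild type. Its ratio of -1.002, 2.003-fold lower on the log2(FPKM + 1) scale, lay just past the limit, and 4.01% of the 14348 genes had a smaller one. Centred, it was 2.72-fold lower, and with a pseudocount of 5 in place of 1 its ratio was -0.71, inside the limit. VP1 had the lowest level of the 9 regulators in both libraries. Of 7 genes found as B3-domain genes by description or name, it ranked at 3 in dek33 and at 2 in wild type. It held 7.87% of their FPKM in dek33 and 22.3% in wild type. The family's first gene (GRMZM2G125596) had 37.4 FPKM in dek33 and 20.8 in wild type. Another (GRMZM2G405699), with 21.1 FPKM in dek33 and 10.99 in wild type, stood above VP1 in dek33 and below it in wild type.

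Most embryo markers were lower in dek33, as VP1 was. Of 5 such genes, 4 had at least 5 FPKM and all 4 were lower in dek33, beside 4.02% over all 14348 genes. The list of 5 summed to 369 FPKM in dek33 and 6908 in wild type, 18.7-fold lower. None was listed at 0. Globulin-2 (glb2), an embryo storage protein, had 4.53 FPKM in dek33 and 700 in wild type, and EMB564, a late embryogenesis protein, had 53.2 in dek33 and 3482 in wild type. The fifth, lec1, a regulator of early embryo development, had 2.12 FPKM in dek33 and 0.295 in wild type. The part of embryo tissue in the VP1 difference was not tested. Of 9 basal transfer layer markers, 4 were lower as deposited and 7 centred, beside 4.02% and 6.79% over all 14348 genes, with a sum of 521 FPKM in dek33 and 1099 in wild type. Green and maternal tissue markers summed to 6.92 FPKM in dek33 and 4.24 in wild type over 18 genes.

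FL3, the PLATZ regulator (GRMZM2G006585, chromosome 8, 51608197 to 51609614), had 447 FPKM in dek33 and 213 in wild type. Its ratio of 1.06, 2.09-fold on the log2(FPKM + 1) scale, lay just past the limit, and 12.2% of the 14348 genes had a larger one. Centred, the ratio was 0.62. Only 2 genes were found as PLATZ genes by description or name, so other genes of the family may be missing. Of their FPKM, FL3 made up 99.5% in dek33 and 99.6% in wild type. The second of them (GRMZM2G086403) had 2.41 FPKM in dek33 and 0.827 in wild type.

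Together the 9 regulators summed to 2497 FPKM in dek33 and 1880 in wild type, a 1.33-fold difference close to the 1.36-fold median shift of expressed genes. They made up 0.328% of all FPKM in dek33 and 0.279% in wild type. NAC130 alone held 31.1% of that sum in dek33 and 51.4% in wild type. Over the same genes NAC128 held 21.3% in dek33 and 10.6% in wild type, O2 held 18.7% in dek33 and 13.0% in wild type, and FL3 held 17.9% in dek33 and 11.3% in wild type. These 4 genes carried 89.0% of the sum in dek33 and 86.3% in wild type, and the other 5 carried the rest. Without NAC128 the sum was 1964 FPKM in dek33 and 1682 in wild type, a 1.17-fold difference.

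The order of the 9 levels was largely shared. In dek33 it ran, from the highest, NAC130, NAC128, O2, FL3, NKD1, PBF1, O11, NKD2 and VP1. In wild type it ran NAC130, O2, FL3, NAC128, O11, PBF1, NKD1, NKD2 and VP1. Of 36 pairs of regulators, 5 stood in the other order, and those pairs all involved NAC128 or lay among PBF1, O11 and NKD1. In both libraries NKD1, PBF1 and O11 lay close to each other, between 65.1 and 87.6 FPKM. With 1 library per genotype there is no spread to say whether neighbours in either order differ.

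Proportions between regulators within a library do not depend on its scaling. O2 stood at 5.65 times PBF1 in dek33 and 3.56 times in wild type. Against O11, its upstream regulator, O2 stood at 7.12 times in dek33 and 3.31 times in wild type. Against VP1 the proportion of O2 was 79.5 in dek33 and 19.2 in wild type. FL3 and O2 kept nearly the same proportion, with FL3 at 0.960 times O2 in dek33 and 0.872 times in wild type. O2 also kept its proportion to ohp2, the closely related bZIP gene opaque-2 heterodimerizing protein 2, at 21.2 times in dek33 and 19.6 times in wild type. For ohp1 the proportion was 196 in dek33 and 194 in wild type, but ohp1 was below 5 FPKM in both libraries.

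**Figure D3:**
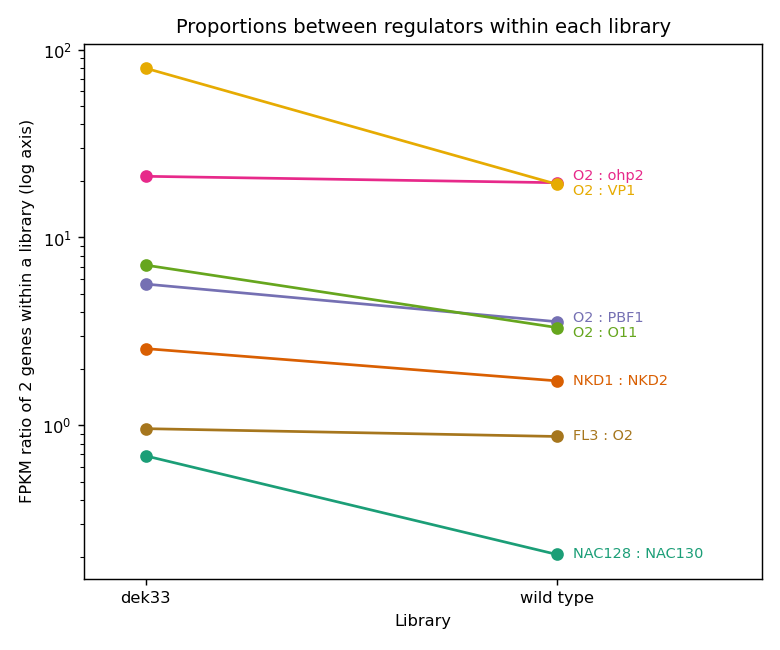
FPKM ratio of 2 genes within the same library, dek33 at the left and wild type at the right, on a log axis. O2 to VP1 (79.5 in dek33, 19.2 in wild type) and NAC128 to NAC130 (0.687 in dek33, 0.205 in wild type) have the steepest lines, and O2 to ohp2 and FL3 to O2 are nearly flat.

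Several other known endosperm regulators could not be tied to a gene ID and were left out, so their levels were not read. The other regulators and partners that were read are therefore an incomplete list. Of 11 such genes 4 had at least 5 FPKM, of which DOF36 was higher, 0 were lower and 3 were neither, with a median of 0.55 over the 8 genes with at least 1 FPKM. GAMYB, a MYB protein that binds prolamin promoters in barley, had 54.4 FPKM in dek33 and 37.7 in wild type, and ohp2 had 22.02 in dek33 and 12.5 in wild type. A relative of the oil synthesis regulator WRI1 had 6.84 FPKM in dek33 and 9.85 in wild type. MADS47, which is known to bind O2, had 2.84 FPKM in dek33 and 2.26 in wild type, and a second gene ID described under the same name had 3.32 in dek33 and 2.45 in wild type.

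Most measured zein genes, the class to which targets of O2, PBF1 and the NAC pair belong, were lower in dek33, with exceptions given here. Of 11 genes for 22 kD alpha zeins, 9 were lower, 0 higher and 2 neither, with a median ratio of -1.67. Over all 14348 genes 4.02% were lower and 14.8% higher. Centred, 10 of the 11 zein genes were lower, beside 6.79% over all genes. The 11 genes summed to 30225 FPKM in dek33 and 84619 in wild type, 2.80-fold lower. Floury-2, one of the most abundant, had 8396 FPKM in dek33 and 23340 in wild type, and the gene az22z5 had 183 in dek33 and 1941 in wild type. In contrast az22z4 had 3886 FPKM in dek33 and 3799 in wild type. Set against the level of O2, the 22 kD zein sum was 64.9 FPKM per FPKM of O2 in dek33 and 346 in wild type. Single zein values are uncertain, since near-identical copies can exchange reads.

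Of 14 genes for 19 kD alpha zeins, 8 were lower, 3 higher and 3 neither, beside 4.02% lower and 14.8% higher over all 14348 genes. Centred, 10 were lower and 3 higher, beside 6.79% and 4.4%. The 3 higher ones were listed at 0 in wild type, so no fold is given for them. The 11 others summed to 41934 FPKM in dek33 and 138221 in wild type, 3.30-fold lower. With all 14 genes the sums were 100633 FPKM in dek33 and 138221 in wild type. Of the other zein classes only 2 genes were measured here. The 18 kD delta zein gene dzs18 had 624 FPKM in dek33 and 1162 in wild type. The 50 kD gamma zein gene gz50 had 4099 FPKM in dek33 and was listed at 0 in wild type. Other gamma zein genes could not be tied to a gene ID and were left out.

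Of 5 known non-zein targets of O2 or PBF1, 0 were higher and 0 lower, a count too small to set apart from the 18.8% of all 14348 genes that were higher or lower. They had a median ratio of 0.27 (-0.17 centred). The pyruvate orthophosphate dikinase gene cyppdkZm1 had 1420 FPKM in dek33 and 909 in wild type, and its relative cyppdkZm2 had 2849 in dek33 and 2065 in wild type. The ribosome-inactivating protein gene b-32, a classical O2 target, had 888 FPKM in dek33 and 897 in wild type. The lysine-degrading enzyme gene lkrsdh1 had 98.1 FPKM in dek33 and 119 in wild type, and du1, a starch synthase gene, had 101 in dek33 and 83.4 in wild type. Brittle-2 (bt2), the small subunit of the starch-making ADP-glucose pyrophosphorylase and a target of the NAC pair, had 3700 FPKM in dek33 and 1868 in wild type, 1.98-fold. Among 5 genes known to lie downstream of O11, 0 were higher and 0 lower, with a median of 0.46. They are O2, PBF1, NKD2, cyppdkZm1 and cyppdkZm2, all given above, so this list is not a separate measurement.

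Genes tied to VP1 and seed maturation were mostly lower in dek33. Of 17 with at least 5 FPKM, 12 were lower, 0 higher and 5 neither, beside 4.02% lower and 14.8% higher over all 14348 genes. The median over the 18 with at least 1 FPKM was -2.74. The whole list of 20 genes summed to 672 FPKM in dek33 and 9408 in wild type. Oleosin 1 (ole1), a coat protein of oil bodies, had 251 FPKM in dek33 and 2332 in wild type. Dehydrin 13 had 21.6 FPKM in dek33 and 19.9 in wild type, and a late embryogenesis abundant gene (GRMZM2G000777) had 15.8 in dek33 and 7.98 in wild type. Several of these genes are also embryo markers, so this list and the embryo markers are not separate measurements.

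The seed maturation genes above were not part of the abscisic acid list, which therefore does not cover abscisic acid response as a whole. Its genes, mainly of synthesis and signalling, had a median of 0.38 over 18 genes with at least 1 FPKM, near that of expressed genes. Of 13 with at least 5 FPKM, 1 was higher, 0 lower and 12 neither, beside 14.8% higher and 4.02% lower over all 14348 genes. Centred, 0 were higher and 2 lower, beside 4.4% and 6.79%. The one higher as deposited was RAB15, with 2140 FPKM in dek33 and 923 in wild type. The synthesis gene vp14 was low in both, with 0.812 FPKM in dek33 and 2.56 in wild type, and the kinase gene SnRK2.5, one of those lower when centred, had 10.9 in dek33 and 19.05 in wild type. Aleurone anthocyanin genes, which VP1 activates through c1, were all below 5 FPKM, and c1 itself had 0.707 FPKM in dek33 and 0.922 in wild type.

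For FL3, 4 genes were described as subunits shared by RNA polymerases I, II and III. None passed 2-fold, a count too small to set apart from the 18.8% of all 14348 genes that did. The median ratio of these 4 genes was 0.59. The most abundant (GRMZM2G034326) had 311 FPKM in dek33 and 162 in wild type, and the least abundant (GRMZM2G322661) had 24.5 in dek33 and 20.3 in wild type. Subunits found in RNA polymerase III alone were not analysed here.

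**Figure D4:**
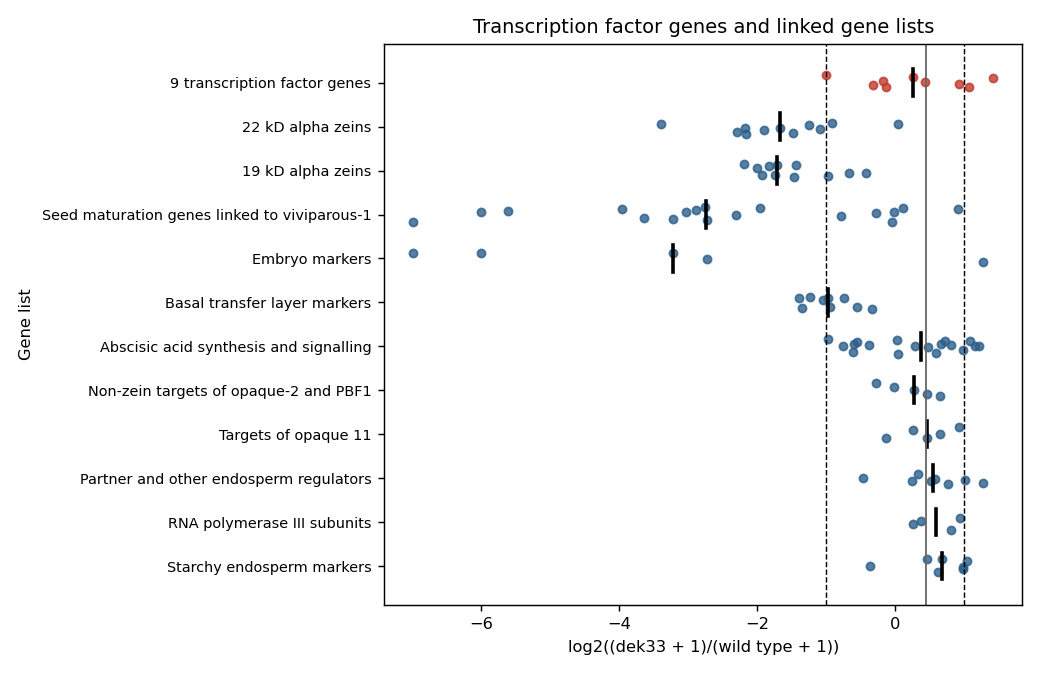
The log2 ratio of each gene in the 9 regulators (red) and 11 linked or marker lists (blue), for genes with at least 1 FPKM in 1 or both libraries and above 0 in both; vertical jitter only separates points. Black bars are medians of the plotted genes, the grey line is the median of expressed genes (0.44) and dashed lines mark 2-fold. Medians of the zein, seed maturation, embryo and basal transfer layer lists lie to the left of that of the regulators. Some genes of these lists lie within the range of the regulators.

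Genes found by description or name for the 7 families of the regulators summed to 5203 FPKM in dek33 and 3956 in wild type. This was a 1.32-fold difference. The 9 regulators held 48.0% of that sum in dek33 and 47.5% in wild type. Family genes without such a description or name were not counted, so these are not shares of whole families. Of 33 NAC genes with at least 5 FPKM, 7 were higher, NAC128 among them, and 1 was lower, and centred these counts were 3 and 1. Of 38 bZIP genes 2 were higher and 2 lower (1 and 3 centred), and of 30 basic helix-loop-helix genes 2 were higher and 3 lower (0 and 3 centred). Of 4 B3 genes 1, VP1, was lower as deposited and 2 were lower centred. The shares over all 14348 genes were 14.8% higher and 4.02% lower as deposited, and 4.4% and 6.79% centred.

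For each regulator the named gene nearest to it in log2(FPKM + 1) over the 2 libraries was found, with distance as the measure of likeness. O2 lay nearest to GF14-6, a 14-3-3 protein gene, with 476 FPKM in dek33 and 251 in wild type. FL3 lay nearest to tif-4A3, a translation initiation factor gene, with 446 FPKM in dek33 and 210 in wild type. NAC128 had the most distant neighbour, a 40S ribosomal protein S29 gene (GRMZM2G165208) with 509 FPKM in dek33 and 187 in wild type, at 0.11 log2 units. NAC130 lay nearest to Ubiquitin2 (804 FPKM in dek33, 978 in wild type) and VP1 to GRF6, a growth-regulating factor gene (5.75 in dek33, 13.0 in wild type). With 2 libraries such likeness rests on 2 values per gene.

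How far these ratios hang on scaling differed between regulators. Over 6 other settings of pseudocount and scaling, NAC128, FL3 and O2 kept ratios above 0, and VP1, NAC130, O11 and NKD2 kept ratios below 0. PBF1 ranged from -0.23 to 0.26 and NKD1 from -0.074 to 0.43, so that their direction depended on the setting. NAC128 and FL3 passed 2-fold with the values as deposited and with other pseudocounts, but with none of the 4 scalings.

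**Figure D5:**
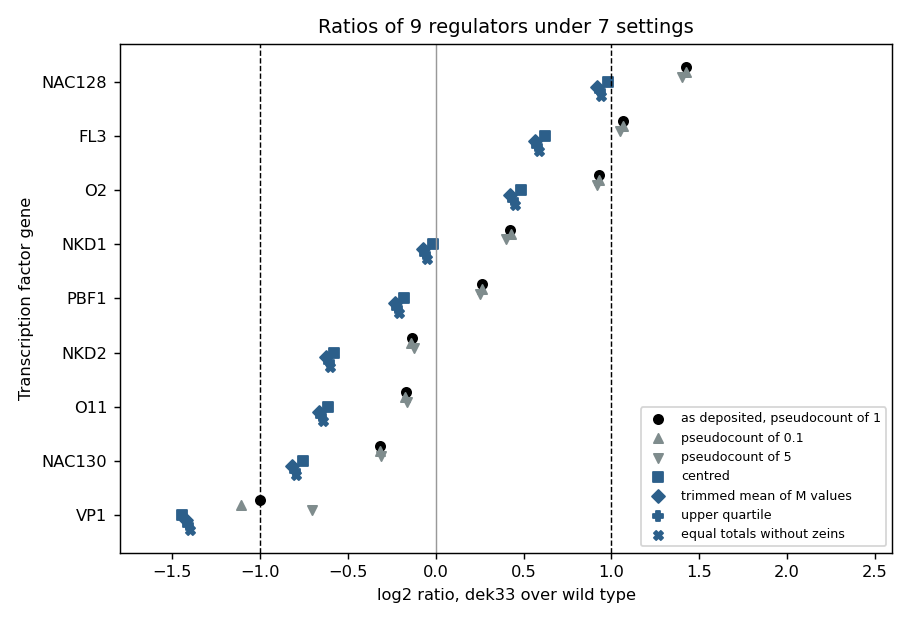
The log2 ratio of dek33 over wild type for each of the 9 genes as deposited with a pseudocount of 1 (black), with 2 other pseudocounts (grey) and under 4 scalings of the libraries (blue). Dashed lines mark 2-fold; the scalings move all ratios to the left by a like amount, which takes NAC128 and FL3 inside the limit and carries PBF1 and NKD1 across 0.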

How the data were processed

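The values are FPKM as the authors deposited them, 1 per gene and genotype, from endosperm at 15 DAP. The build was B73 RefGen_v3 and Bowtie 0.12.2 was among the tools, per the submitters' processing notes. The sources used here do not give the program behind FPKM, the annotation or how the triplicate was pooled. A value of 1e-05 stands in place of 0 (1330 genes in dek33, 2022 in wild type) and such genes are described as listed at 0. Ratios of 4314 genes below 0.3 FPKM showed no steps: no bin of 0.05 log2 units held over 2.2% of them. The depth is thus unknown, and no value has a counting interval.

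Names came from gene descriptions in the files and the RefSeq genes of assembly NAM-5.0 (names only), which matched 18190 IDs (54.7%). Coordinates are those of the files with starts raised by 1, since the length of 96.5% of 113 short gene models is then a multiple of 3.

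With 1 value per genotype there was no test. All 9 regulators were named. In lists, every gene was eligible to be named up to 6 genes, and otherwise the 2 highest and 2 lowest ratios and the 2 most abundant. Families were gathered by description or name and may lack genes without one. In each family the 2 most abundant genes were named. The regulators and lists were chosen with earlier results of these data known. Genes named outside these rules, ohp2, ohp1, c1, the second MADS47 ID, the PBF1 neighbour GRMZM2G146267 and the dek33 gene GRMZM2G090068, were chosen after their values were seen. Alternatives were pseudocounts of 0.1 and 5, other filters and fold limits, centring, and scaling by a trimmed mean of M values, the upper quartile or totals without zeins. The ratio and call steps were tested on simulated data. Python 3.11.15, numpy 2.4.6, pandas 2.3.3 and matplotlib 3.10.9 were used.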

Additional observations from a re-analysis of the deposited data

How the results depend on the processing

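The count of 2 regulators higher in dek33 became 0 after centring, with a trimmed mean of M values, with the upper quartile, with equal totals without zeins and with a 4-fold limit. These scalings divide the dek33 values by 1.36 to 1.42. The count of 1 lower became 0 with a pseudocount of 5, with an FPKM minimum of 20 and with a 4-fold limit, because VP1 is low and lies at the 2-fold limit. The median of the seed maturation list was -2.08 with a pseudocount of 5, against -2.74 with a pseudocount of 1. The other 85 of 94 alternatives to counts, sums and list medians, and all 54 alternatives to single regulator values, moved their value by at most 1.5-fold. The largest such move of a count was from 2 to 3 regulators higher with a 1.5-fold limit. Moves of this size could still change a direction. The summed FPKM ratio of the regulators, 1.33 as deposited, was 0.937 with a trimmed mean of M values and 0.952 with equal totals without zeins. Their median ratio went from 0.26 to -0.18 centred and -0.23 with a trimmed mean. With a trimmed mean the medians of the non-zein targets (-0.23), the O11 list (-0.039) and the abscisic acid list (-0.10) were also below 0. Leaving out genes listed at 0, chosen after seeing the data, set the median of the 19 kD zeins at -1.71, against -1.45 with all 14 genes. The plain FPKM ratio was also added after seeing the data. Leaving out a replicate was not possible. No paired analysis was possible because the data hold 1 library per genotype. Depth is unknown, so the precision of VP1 and other low values cannot be stated.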
